A study of Mus musculus with 24 samples.

Results

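Primary mouse keratinocytes lacking PPAR-beta were compared with wild-type keratinocytes after both had been given an activated Hras retrovirus and vehicle. The comparison rests on 6 of the 24 arrays of the series, 3 titled as Ppar-beta null DMSO +hRas and 3 titled as wild-type DMSO +hRAS, and covers all 19937 genes that could be named from the array's annotation. Ppar-beta null keratinocytes, strain C57/BL6 per the labels, were cultured for 2 days before transduction with the Hras virus, carried activated Hras for 48 h and received DMSO. The wild-type keratinocytes carried the same strain label, culture time, virus and DMSO. The other arrays hold the mock-transduced counterparts in DMSO and all of these cells with GW0742, a synthetic PPAR-beta agonist, at 1 uM for 24 h. RNA was hybridised to a whole-transcript expression array, and the values are log2 expression levels, 3 arrays to a group. Whether the 3 arrays of a group stand for separate cultures or mice is not told by the labels, and the p-values cover no more than array-to-array variation, part or all of which may be technical. The labels also do not say which part of Ppard was deleted in the null cells, nor which promoter drives the virus.

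PPAR-beta, also called PPAR-delta, is a nuclear receptor that binds DNA as a partner of a retinoid X receptor and is activated by fatty acids and their derivatives. It is abundant in the epidermis, where it has been studied for its part in keratinocyte differentiation, survival and lipid handling. Classical target genes encode enzymes of fatty acid oxidation and lipid storage. Activated Hras drives the mitogen-activated kinase and PI3-kinase cascades, and in cultured mouse keratinocytes it lowers the suprabasal keratins and raises simple epithelial keratins. The comparison asks what the absence of the receptor changes in cells that carry the oncogene, without added ligand.

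The arrays carried the markers of keratinocytes. Krt5, a keratin of the basal layer, had 14.03, 13.98 and 14.08 in null cells, against 14.10, 14.11 and 14.14 in wild-type cells (log2). Its partner Krt14 had 14.04, 13.96 and 13.97 in null cells, against 13.94, 13.94 and 13.97 in wild-type cells, and neither keratin passed the test. The summed linear level of 14 keratinocyte markers was 94300 to 98400 in null cells, against 91800 to 97400 in wild-type cells. Melanocyte and endothelial marker sums overlapped between the genotypes, and the fibroblast sum did too, at 21000 to 25200 in null cells against 21500 to 23400 in wild-type cells. The leukocyte sum did not overlap, at 3340 to 3380 over 23 markers in null cells, against 2860 to 2910 in wild-type cells. In bulk RNA more cells of a type and more RNA per cell cannot be told apart. Ppard itself read 11.37, 11.39 and 11.34 in null cells, against 11.61, 11.63 and 11.69 in wild-type cells, a difference of -0.28 ± 0.06 (standard error) with an adjusted p of 0.00194. That small fall checks the labels little, since a probe set that lies outside the deleted part would still give a signal.

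Along the first principal component of the 6 arrays, with 63.4% of their variance, the genotypes separated without overlap. On it null replicate 1 stood at 10.49, against 19.19 and 19.12 for the other null arrays. Wild-type replicate 3 stood at -11.9, against -19.04 and -17.87 for the other wild-type arrays. These arrays were the nearest to the other genotype, and the differentiation and stress genes described below follow the same order within each genotype. Leaving out both arrays left 3648 genes different, a setting chosen after seeing the data, against 3871 with all arrays.

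Of the 19937 genes, 3871 (19.4%) differed between null and wild-type Hras cells at an adjusted p under 0.05, by limma with Benjamini-Hochberg adjustment over all genes; passing this test is meant wherever a gene is said to have risen or fallen. In null cells 2012 genes (10.1%) were higher and 1859 (9.32%) were lower. Most differences were small: 580 genes changed by at least 1.5-fold and 139 by at least 2-fold, 60 of them higher (0.301% of genes) and 79 lower (0.396%). The median difference over all genes was 0.02 on the log2 scale. All differences below are null minus wild-type on that scale. The shares of all genes, 10.1% higher and 9.32% lower, are the background for every list count below.

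The largest rise of all genes was that of Spon2, which encodes a secreted matrix protein of the spondin family, with 10.76, 10.74 and 10.64 in null cells, against 8.45, 8.60 and 8.49 in wild-type cells. The difference was 2.20 ± 0.07 with an adjusted p of 8.99e-15, 4.60-fold higher in null cells. Dhdh, a dihydrodiol dehydrogenase, had 9.09, 9.22 and 9.11 in null cells, against 7.31, 6.99 and 7.14 in wild-type cells, a difference of 1.99 ± 0.12. Atp10d, a phospholipid flippase, had 11.19, 11.16 and 11.01 in null cells, against 9.12, 9.19 and 9.22 in wild-type cells, a difference of 1.94 ± 0.06. The null arrays lay far above the wild-type arrays for all 3 of these genes, with little spread inside either genotype. Plbd1, a phospholipase B-like protein, had 10.82, 11.34 and 11.30 in null cells, against 9.03, 9.11 and 9.65 in wild-type cells, a difference of 1.89 ± 0.13. Defb4, a beta-defensin, had 9.32, 10.28 and 10.0003 in null cells, against 7.59, 7.92 and 8.88 in wild-type cells, a difference of 1.74 ± 0.23. Derl3, which helps move misfolded proteins out of the endoplasmic reticulum, had 10.02, 10.67 and 10.66 in null cells, against 8.55, 8.80 and 9.41 in wild-type cells, a difference of 1.53 ± 0.17. For Plbd1, Defb4 and Derl3, null replicate 1 was the lowest null array and wild-type replicate 3 the highest wild-type array. The largest rises and falls named here were picked among genes without overlap between the genotypes, which held for 6729 of all genes (33.8%). Ceacam19 (1.63), Lypd5 (1.58), Qpct (1.57) and Prl7b1 (1.52) also lay among the 12 largest rises, together with the collagenase genes Mmp1a and Mmp1b described below. Lypd5 encodes a protein of the Ly6/uPAR family and Qpct glutaminyl cyclase.

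The largest falls exceeded the largest rises. Mcam, an adhesion molecule also known as CD146, had 8.45, 8.48 and 8.44 in null cells, against 11.77, 11.68 and 11.62 in wild-type cells. The difference was -3.23 ± 0.07 with an adjusted p of 4.89e-18, 9.39-fold lower in null cells. Mid1, a microtubule-associated ubiquitin ligase, had 9.65, 9.58 and 9.51 in null cells, against 12.02, 12.02 and 12.06 in wild-type cells, a difference of -2.45 ± 0.05. Its arrays were as tight as those of Mcam. Il3, which encodes the cytokine interleukin-3, had 6.02, 5.54 and 5.31 in null cells, against 9.09, 8.77 and 8.04 in wild-type cells, a difference of -3.01 ± 0.23. Wild-type replicate 3 was the lowest wild-type array and null replicate 1 the highest null array for Il3. Ublcp1, a proteasome-associated phosphatase, had 6.85, 7.41 and 7.13 in null cells, against 10.04, 9.63 and 10.14 in wild-type cells, a difference of -2.81 ± 0.19. Slc15a2, a peptide transporter, had 6.60, 6.30 and 6.18 in null cells, against 9.11, 8.93 and 8.53 in wild-type cells, a difference of -2.50 ± 0.13. Gabrp, a subunit of a GABA-gated chloride channel, had 9.76, 9.37 and 9.35 in null cells, against 11.81, 12.01 and 11.65 in wild-type cells, a difference of -2.33 ± 0.15. The remaining falls among the largest 12 were in Cp (-2.16), Rassf4 (-1.95), Clca3a2 (-1.85), Pdpn (-1.84), Lcn2 (-1.82) and Chil1 (-1.82). Cp encodes the copper carrier ceruloplasmin, Lcn2 the iron-siderophore carrier lipocalin 2, Pdpn the membrane glycoprotein podoplanin and Chil1 a chitinase-like secreted protein.

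**Figure D1:**
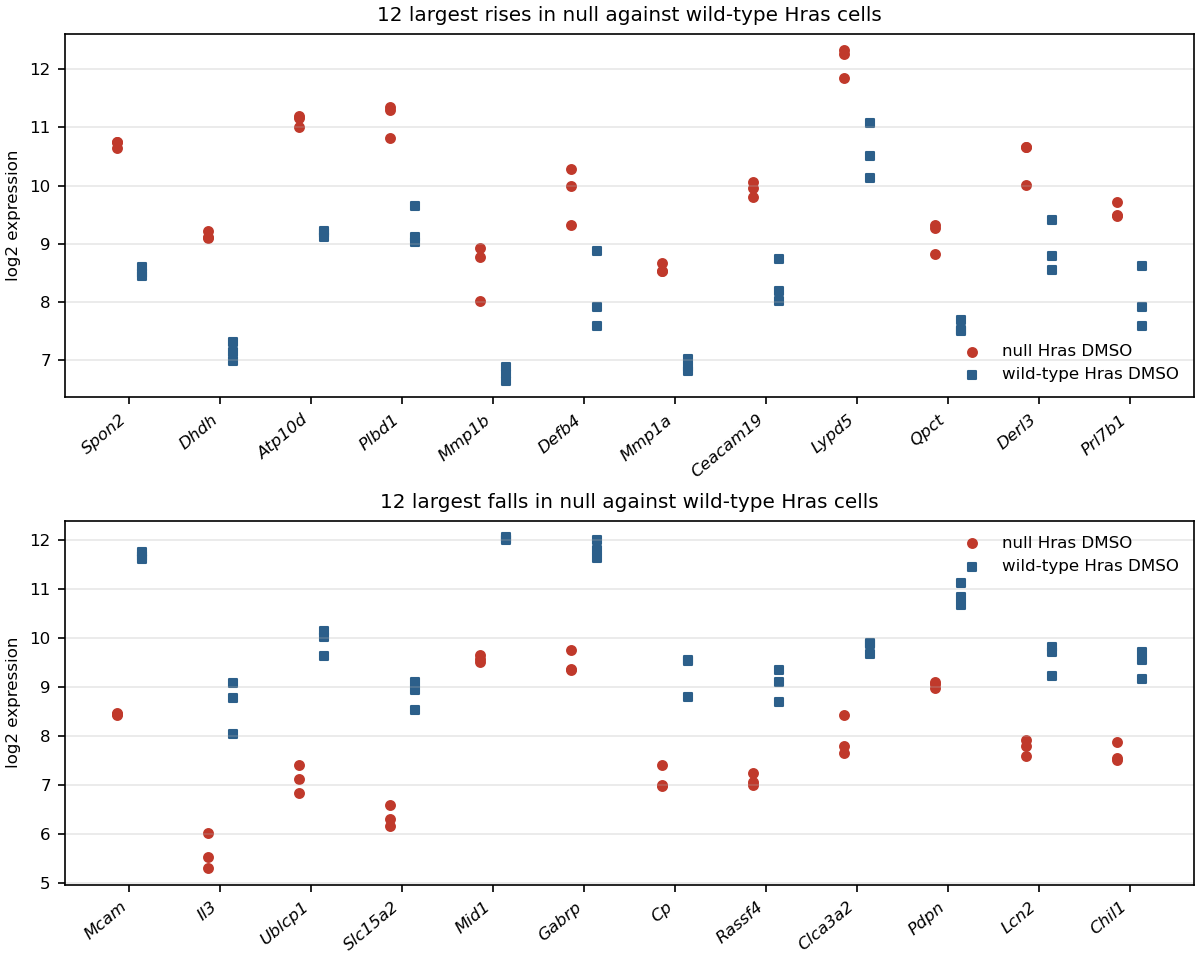
Log2 expression in each of the 3 null Hras DMSO arrays (circles) and 3 wild-type Hras DMSO arrays (squares) for the 12 largest rises (top) and 12 largest falls (bottom) among genes that passed with no overlap between the genotypes. The falls of Mcam (-3.23) and Mid1 (-2.45) show almost no spread between arrays, whereas Defb4 (1.74) and Il3 (-3.01) spread within each genotype.

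Genes of the unfolded protein and integrated stress responses were higher in null cells. These responses answer misfolded protein in the endoplasmic reticulum and shortage of amino acids by slowing translation and raising chaperones. Of 30 measured members 24 rose and 0 fell, with a median difference of 0.34. Ppp1r15a, the phosphatase subunit that restores translation, had 10.81, 11.32 and 11.26 in null cells, against 9.65, 9.79 and 10.03 in wild-type cells, a difference of 1.31 ± 0.10 with an adjusted p of 1.83e-08. Sdf2l1, a component of a chaperone complex, had 11.90, 12.14 and 12.11 in null cells, against 11.18, 11.14 and 11.43 in wild-type cells, a difference of 0.80 ± 0.08. Atf3, a stress-induced transcription factor, had 10.88, 11.31 and 11.22 in null cells, against 10.40, 10.37 and 10.41 in wild-type cells, a difference of 0.74 ± 0.08. Creld2, a reticulum protein with disulphide isomerase activity, had 11.54, 11.54 and 11.52 in null cells, against 10.78, 10.81 and 10.99 in wild-type cells, a difference of 0.67 ± 0.07. In all 4 genes the lowest null array lay above the highest wild-type array. Genes picked for large changes on these same arrays tend not to overlap, so this adds no support, here or below. Over all genes 33.8% did not overlap. The master chaperone Hspa5, also called BiP, had 13.54, 13.59 and 13.60 in null cells, against 13.09, 13.12 and 13.36 in wild-type cells, a difference of 0.39 ± 0.06. Ddit3, or CHOP, a factor tied to death under lasting stress, had 10.14, 10.45 and 10.32 in null cells, against 9.72, 9.66 and 9.84 in wild-type cells, a difference of 0.56 ± 0.09. Atf4, the translationally controlled hub of the integrated response, rose by only 0.18 ± 0.05, a call lost without wild-type replicate 2 or null replicate 3 (adjusted p 0.0658 to 0.103). Dnajc3 (0.63), Trib3 (0.61), Dnajb9 (0.60) and Pdia6 (0.55) were the next in size. Within wild-type cells, replicate 3 was the highest array for 29 of the 30 members, and within null cells replicate 1 was the lowest for 23. Over all 19937 genes these counts were 6283 and 6068. Without those arrays 26 members rose and 0 fell, but leaving out the highest wild-type and the lowest null array can only widen a rise. With only the null and wild-type Hras DMSO arrays fitted, 20 members rose and 0 fell.

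The ER stress element, which reads CCAAT, 9 bases of any kind and then CCACG, is the classical promoter motif of the reticulum chaperones. It was searched on both strands in the 250 bases before each annotated start in RefSeq promoters of build GRCm38.p6, which were given for 15613 of the genes, and a gene counts when any of its starts holds a match. The motif was chosen after the chaperone genes had been seen to differ. It stood in 20 of all 15613 promoters (0.128%), in 10 of 1638 promoters of genes that rose (0.611%) and in 1 of 1468 promoters of genes that fell (0.0681%). In the stress response list 7 of 29 promoters held it (24.1%), those of Calr, Canx, Creld2, Dnajc3, Hsp90b1, Hspa5 and Pdia6. A match is a description of the letters and not a measured binding site. Stretches from 5 of these promoters are shown so that the shared letters can be read in genes that rose; each starts 30 bases before the match and ends at the base before the gene's start, and capitals mark the element.
Hspa5 (chr2:34771995-34772089, plus strand): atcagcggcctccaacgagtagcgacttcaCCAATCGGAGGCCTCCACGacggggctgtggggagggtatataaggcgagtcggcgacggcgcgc
Creld2 (chr15:88819490-88819645, plus strand): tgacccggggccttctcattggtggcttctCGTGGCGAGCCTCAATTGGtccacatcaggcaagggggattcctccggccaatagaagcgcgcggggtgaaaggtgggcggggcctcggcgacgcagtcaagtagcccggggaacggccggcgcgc
Pdia6 (chr12:17266461-17266588, plus strand): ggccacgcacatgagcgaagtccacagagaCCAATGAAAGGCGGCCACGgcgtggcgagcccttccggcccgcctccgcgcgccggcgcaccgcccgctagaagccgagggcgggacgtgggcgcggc
Hsp90b1 (chr10:86705445-86705686, minus strand): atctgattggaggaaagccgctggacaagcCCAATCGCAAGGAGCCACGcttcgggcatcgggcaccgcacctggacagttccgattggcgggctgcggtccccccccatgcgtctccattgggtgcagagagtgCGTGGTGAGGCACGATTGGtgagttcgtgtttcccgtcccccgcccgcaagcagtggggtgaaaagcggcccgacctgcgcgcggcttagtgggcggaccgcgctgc
Dnajc3 (chr14:118937797-118937931, plus strand): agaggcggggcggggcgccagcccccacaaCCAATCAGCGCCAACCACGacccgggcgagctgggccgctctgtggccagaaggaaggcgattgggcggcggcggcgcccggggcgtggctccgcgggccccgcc
The element reads on the strand of the gene in Hspa5, Pdia6 and Dnajc3 and on the opposite strand in Creld2, and Hsp90b1 holds 1 match on each strand. The differences of these genes were 0.39 for Hspa5, 0.67 for Creld2, 0.55 for Pdia6, 0.34 for Hsp90b1 and 0.63 for Dnajc3, and each passed. Canx holds the element too but did not pass, with a difference of 0.00.

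Genes of the cornified envelope, the protein shell that keratinocytes build late in differentiation, were also higher in null cells. Of 36 measured members 23 rose and 1 fell, and the median difference was 0.55. Sprr4, a small proline-rich envelope precursor, had 9.66, 9.96 and 9.94 in null cells, against 8.20, 8.62 and 9.01 in wild-type cells, a difference of 1.24 ± 0.15 with an adjusted p of 3.87e-06. Lor, which encodes loricrin, the main envelope protein, had 10.25, 10.77 and 10.70 in null cells, against 9.38, 9.75 and 10.10 in wild-type cells, a difference of 0.83 ± 0.15. The late envelope genes Lce1f (1.13 ± 0.21), Lce3a (1.12 ± 0.20) and Lce1b (1.00 ± 0.16) rose as well. Krt1, the suprabasal keratin, had 8.73, 8.77 and 8.69 in null cells, against 7.75, 8.02 and 8.38 in wild-type cells, a difference of 0.68 ± 0.13. Its partner Krt10 rose by 0.29 ± 0.09, a call lost without wild-type replicate 1, wild-type replicate 3, null replicate 1 or null replicate 3 (adjusted p 0.064 to 0.153). Both suprabasal keratins stood far below mock cells, where Krt1 averaged 13.86 ± 0.07 in null cells and 13.85 ± 0.03 in wild-type cells (SD, n = 3 each). Ivl, or involucrin, an early envelope precursor, did not pass, with 11.80, 11.79 and 11.82 in null cells, against 11.76, 11.85 and 11.78 in wild-type cells. S100a8, a calcium-binding alarmin, was the member that fell, by 0.81. Wild-type replicate 3 was the highest wild-type array for 30 of the 36 members and null replicate 1 the lowest null array for 29. Over all 19937 genes these counts were 6283 and 6068. The arrays of the genotypes did not overlap for 16 members, against 6729 of all genes (33.8%). Leaving out both of those arrays gave 28 rises and 1 fall, with a median of 0.87. Where they were the highest wild-type and the lowest null array, leaving them out can only widen the difference. That setting is therefore no check of the rises. With only the null and wild-type Hras DMSO arrays fitted, 16 members rose and 1 fell. Leaving out any single array gave 18 to 25 rises.

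The lipids that seal the cornified layer are made by a dedicated set of enzymes, and 14 of 20 measured genes of this lipid barrier rose, with 0 falling and a median of 0.32. With only the 6 arrays fitted 8 rose, and with 1 array left out 10 to 14. Alox12b, a lipoxygenase that oxidises ceramide-bound linoleate, had 10.24, 10.82 and 10.71 in null cells, against 8.82, 9.02 and 9.65 in wild-type cells, a difference of 1.43 ± 0.17 with an adjusted p of 4.14e-06. Aloxe3, which acts after it, had 10.10, 10.84 and 10.69 in null cells, against 8.90, 9.17 and 9.74 in wild-type cells, a difference of 1.27 ± 0.17. Degs2, which makes phytoceramides, rose by 0.95 ± 0.19, and Pnpla1, which attaches linoleate to ceramides, rose by 0.94 ± 0.16. Alox12b and Aloxe3 were higher in every null array than in any wild-type array.

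The skin-shedding proteases and their inhibitors moved in both directions, with 9 of 26 measured kallikrein, Spink5 and clade B serpin genes higher and 4 lower. A share of 50% passed, beside 19.4% of all genes. Klk5, a trypsin-like protease of the cornified layer, had 9.90, 10.55 and 10.39 in null cells, against 8.46, 8.85 and 9.28 in wild-type cells, a difference of 1.42 ± 0.18. Klk11 had 9.41, 9.64 and 9.54 in null cells, against 8.19, 8.43 and 8.45 in wild-type cells, a difference of 1.17 ± 0.08. Klk8 went the other way, with 12.01, 12.14 and 12.04 in null cells, against 13.26, 13.24 and 13.20 in wild-type cells and a difference of -1.17 ± 0.05 at an adjusted p of 6.87e-13. The genotypes did not overlap for any of these 3 kallikreins. Serpinb6c, a mouse serine protease inhibitor, rose by 1.34 ± 0.21, and Spink5, the inhibitor of the kallikreins, by 0.72. The other kallikreins that fell were Klk10, Klk6 and Klk7. Members of the Lce, Sprr, kallikrein and serpin families are close relatives, and probe sets may share signal between them.

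**Figure D2:**
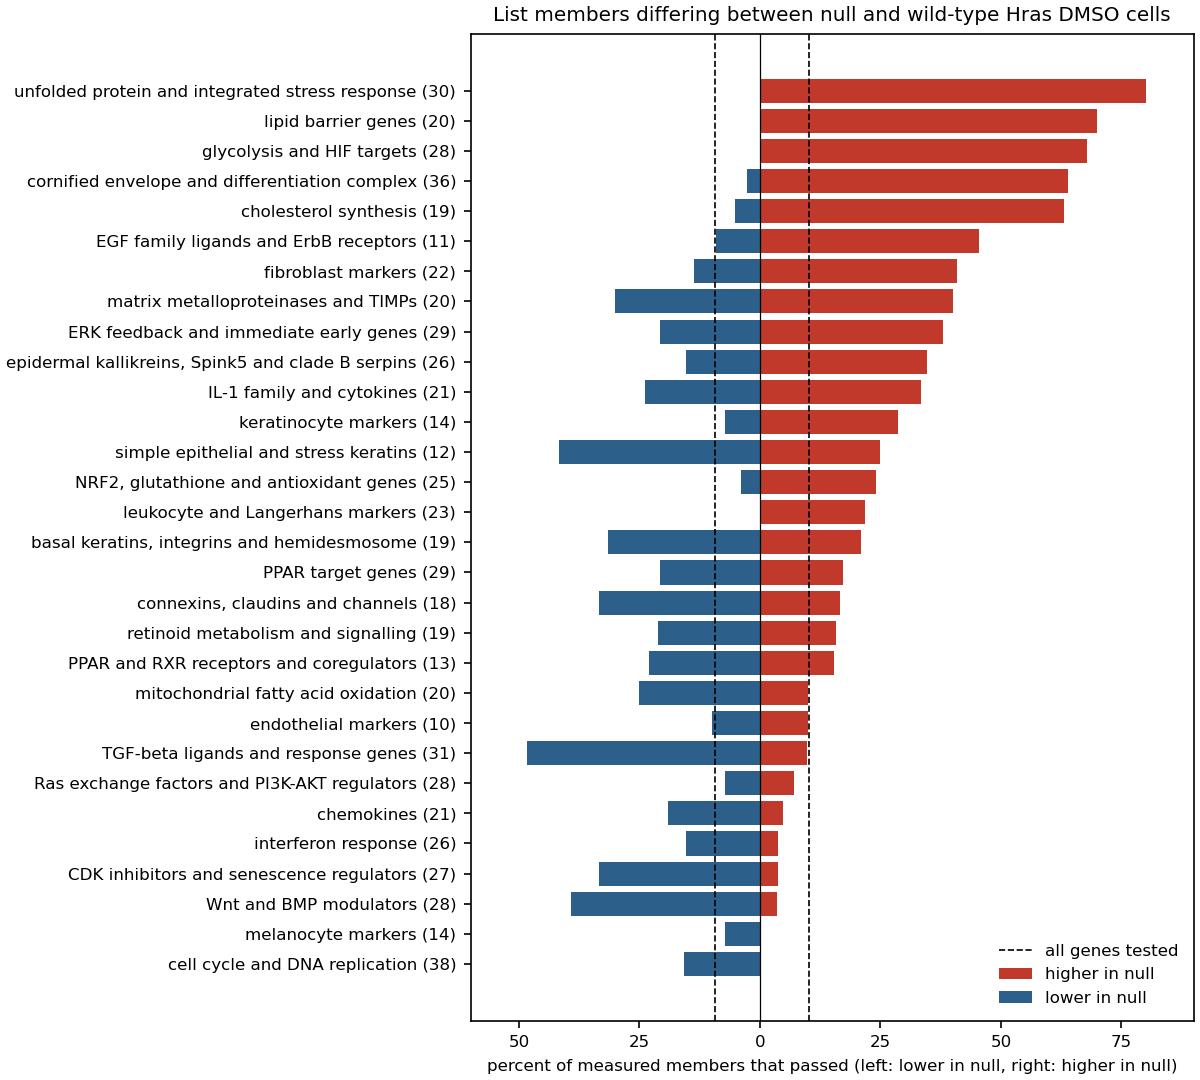
For 30 gene lists, the percent of measured members (number in parentheses) that were lower (left, blue) or higher (right, red) in null than in wild-type Hras DMSO cells. Dashed lines mark the share over all genes tested, 9.32% lower and 10.1% higher. The stress response, lipid barrier, glycolysis, cornified envelope and cholesterol lists lean to the right, and the TGF-beta and Wnt lists to the left.

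TGF-beta restrains keratinocyte growth and drives matrix genes, and more of its ligands and response genes fell than rose in null cells. Of 31 measured members 15 fell, 3 rose and 13 did not pass, with a median of -0.20. The share that passed was 58.1%, beside 19.4% of all genes. The ligand Tgfb3 had 9.72, 9.24 and 9.23 in null cells, against 10.46, 10.27 and 9.998 in wild-type cells, a difference of -0.85 ± 0.17 with an adjusted p of 0.000748. The ligand Tgfb1 had 10.86, 10.78 and 10.80 in null cells, against 11.06, 11.07 and 11.11 in wild-type cells, a difference of -0.27 ± 0.06. Ccn2, a matricellular protein and common response gene, had 11.46, 11.20 and 11.002 in null cells, against 12.07, 12.19 and 11.94 in wild-type cells, a difference of -0.84 ± 0.09. Fst, which encodes the activin antagonist follistatin, had 11.91, 11.78 and 11.75 in null cells, against 12.56, 12.76 and 12.74 in wild-type cells, a difference of -0.87 ± 0.06. For all 4 genes the highest null array was below the lowest wild-type array. Tgfb2, Tgfbr2, Smad3, Thbs1 and the latent-complex genes Ltbp1, Ltbp3 and Ltbp4 fell too, by 0.28 to 0.77. Tgfbi, a secreted matrix protein named for its induction by TGF-beta, went against the rest with 10.85, 10.79 and 10.73 in null cells, against 9.52, 9.74 and 9.79 in wild-type cells, a difference of 1.11 ± 0.07. Inhbb (0.43) and Id2 (0.21) were the other members that rose. The counts of falls stayed between 14 and 15 whichever single array was left out.

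Wnt and BMP modulators leaned the same way, with 11 of 28 measured members lower and 1 higher, and a median of -0.18. Of these members 42.9% passed, beside 19.4% of all genes. Wnt7b, an epidermal ligand, had 9.45, 9.29 and 9.24 in null cells, against 10.42, 10.38 and 10.28 in wild-type cells, a difference of -1.03 ± 0.09. Sostdc1, a secreted antagonist of both pathways, had 10.63, 10.33 and 10.37 in null cells, against 11.25, 11.44 and 11.37 in wild-type cells, a difference of -0.92 ± 0.07. Lgr6, an R-spondin receptor of epidermal stem cells, had 9.34, 9.13 and 9.12 in null cells, against 10.10, 10.14 and 10.11 in wild-type cells, a difference of -0.92 ± 0.13. The Frizzled receptor gene Fzd7 differed by -0.56 ± 0.06. Null arrays were below all wild-type arrays in these 4 genes, which were picked for their changes on these same arrays. Axin2, a feedback target of Wnt signalling, fell by 0.29, and Dkk3 was the member that rose, by 0.16.

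**Figure D3:**
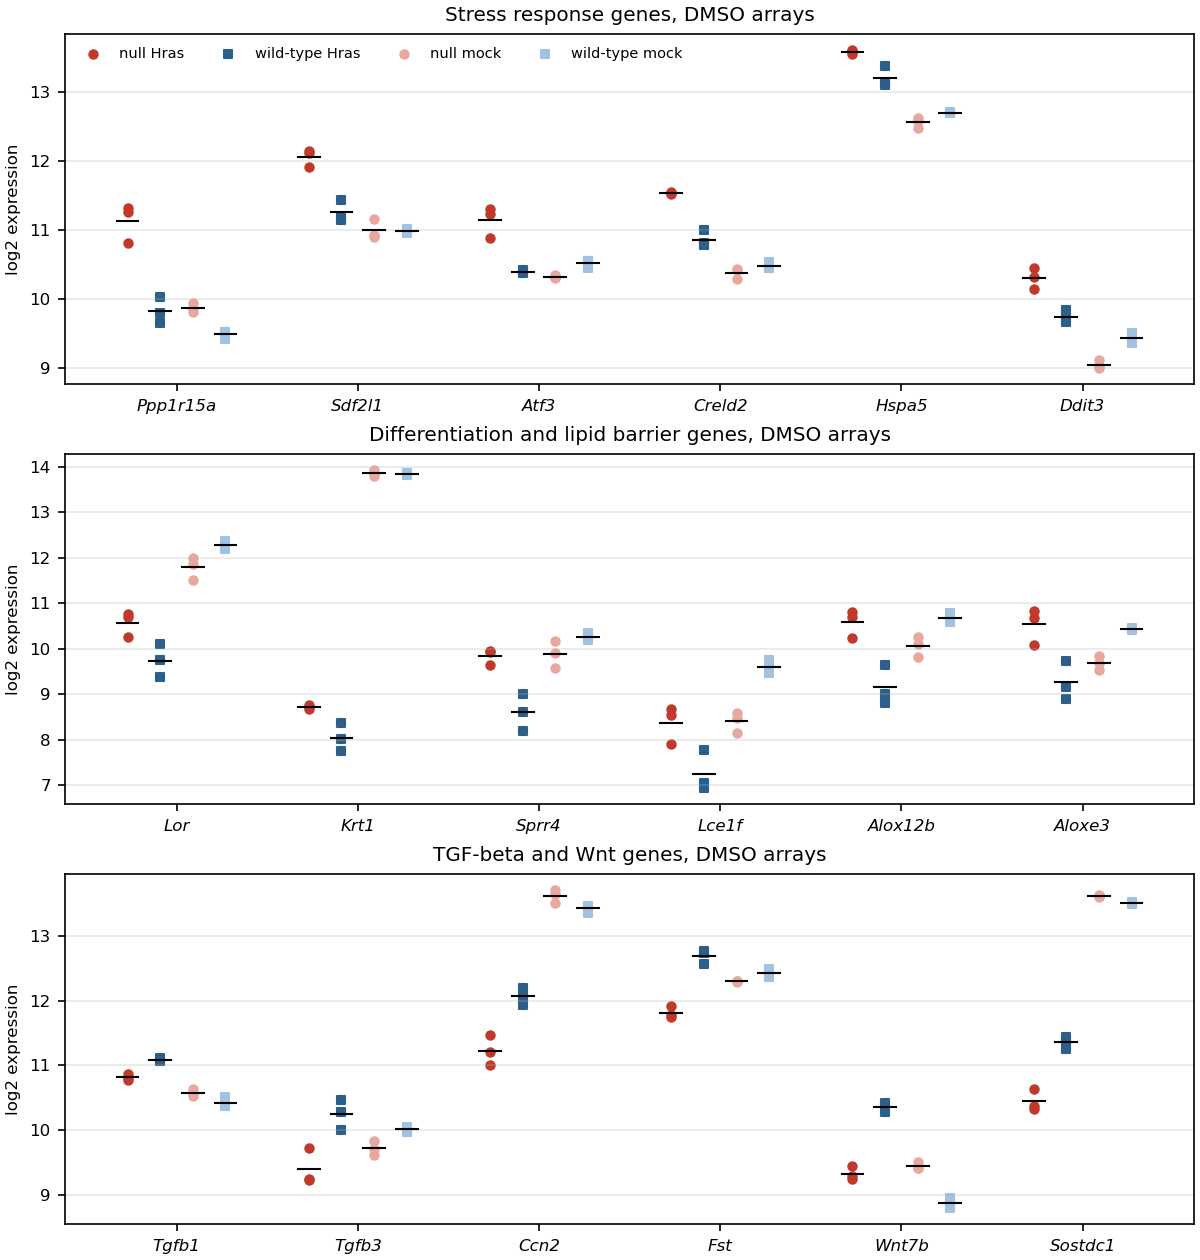
Log2 expression on each DMSO array for 6 stress response genes (top), 6 differentiation and lipid barrier genes (middle) and 6 TGF-beta and Wnt genes (bottom), in null Hras, wild-type Hras, null mock and wild-type mock cells; bars mark group means of 3 arrays. In Hras cells the top and middle genes are higher in null cells and the bottom genes lower. Ddit3, Lor, Lce1f, Alox12b, Aloxe3 and Wnt7b passed in the opposite direction in mock cells.

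Several ligands of the EGF receptor family were higher in null cells. Epgn, which encodes epigen, had 11.66, 12.08 and 12.03 in null cells, against 10.55, 10.67 and 11.07 in wild-type cells, a difference of 1.16 ± 0.13 with an adjusted p of 1.42e-06. Ereg, or epiregulin, had 9.60, 9.88 and 9.73 in null cells, against 8.48, 8.59 and 8.86 in wild-type cells, a difference of 1.09 ± 0.09. Nrg1 rose by 0.43 ± 0.07 and Hbegf by 0.33 ± 0.06. With Btc (0.31), 5 of 11 measured ligands and receptors rose, and the receptor gene Erbb2 fell by 0.17. That fall lost its call whichever single array was left out, and with only the 6 arrays fitted. A share of 54.5% passed, beside 19.4% of all genes. All 3 null arrays exceeded all 3 wild-type arrays for Epgn, Ereg, Nrg1 and Hbegf.

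Downstream of the kinases, 11 of 29 measured feedback and immediate early genes rose and 6 fell, with a median of 0.06. Jun, a subunit of the AP-1 transcription factor, had 10.63, 11.09 and 11.08 in null cells, against 10.39, 10.51 and 10.46 in wild-type cells, a difference of 0.48 ± 0.09. Dusp1, a phosphatase that switches off mitogen-activated kinases, had 12.13, 12.39 and 12.38 in null cells, against 11.73, 11.88 and 11.92 in wild-type cells, a difference of 0.46 ± 0.07. Both were higher in every null array. Fosl1, another AP-1 subunit, rose by 0.35 ± 0.09, a call lost without null replicate 2 or null replicate 3 (adjusted p 0.0804 to 0.083). Egr1, an immediate early transcription factor, had 9.64, 10.42 and 10.44 in null cells, against 9.58, 9.75 and 9.89 in wild-type cells, and its rise of 0.43 ± 0.14 was lost without wild-type replicate 1, wild-type replicate 2, null replicate 2 or null replicate 3 (adjusted p 0.088 to 0.231). Null replicate 1 lay within the wild-type range for Egr1. The ERK-specific phosphatase gene Dusp6 fell by 0.24, a call lost without wild-type replicate 2, null replicate 2 or null replicate 3 (adjusted p 0.0908 to 0.107), whereas the feedback inhibitor Spry2 rose by 0.23 ± 0.06. With only the 6 arrays fitted, 5 of these 29 genes rose and 2 fell. Without null replicate 2 there were 7 rises and 3 falls, without null replicate 3 there were 7 and 2, and without wild-type replicate 1 or 2 the falls were 3.

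Among genes that set the activity of Ras or AKT, 2 of 28 measured members rose and 2 fell, a share of 14.3% near the 19.4% of all genes. When 1 array was left out, 1 to 4 rose, with 4 without null replicate 1 and 1 without wild-type replicate 1, wild-type replicate 2, null replicate 2 or null replicate 3, and 1 fell without wild-type replicate 1, null replicate 2 or null replicate 3. Rasgrp1, a diacylglycerol-dependent activator of Ras, had 7.93, 8.15 and 8.02 in null cells, against 8.62, 8.79 and 8.75 in wild-type cells, a difference of -0.69 ± 0.08 with an adjusted p of 2.2e-06. Inpp4b, a phosphatase that removes a product of PI3-kinase, had 8.59, 8.63 and 8.51 in null cells, against 7.95, 7.82 and 7.74 in wild-type cells, a difference of 0.74 ± 0.14. The Ras GTPase-activating gene Nf1 fell by 0.22, a call lost without wild-type replicate 1, null replicate 2 or null replicate 3 (adjusted p 0.0553 to 0.0775). The PI3-kinase gene Pik3cb rose by 0.17 ± 0.06, a call lost without wild-type replicate 1, wild-type replicate 2, wild-type replicate 3, null replicate 2 or null replicate 3 (adjusted p 0.0555 to 0.199). Ilk, Pdpk1 and Akt1, kinases of the AKT pathway, did not pass, with differences of 0.04 ± 0.06, 0.15 ± 0.06 and -0.07 ± 0.05. Ilk read 11.51, 11.39 and 11.36 in null cells, against 11.38, 11.44 and 11.31 in wild-type cells, so the genotypes overlapped.

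Matrix metalloproteinases, which cut the extracellular matrix, changed strongly in both directions. Of 20 measured protease, inhibitor and plasminogen activator genes 8 rose and 6 fell, a share of 70% beside 19.4% of all genes. Mmp1b had 8.02, 8.92 and 8.78 in null cells, against 6.89, 6.65 and 6.77 in wild-type cells, a difference of 1.80 ± 0.16 with an adjusted p of 6.62e-08. Mmp1a, its close relative among the mouse interstitial collagenases, had 8.54, 8.68 and 8.54 in null cells, against 6.89, 6.81 and 7.03 in wild-type cells, a difference of 1.68 ± 0.17. The stromelysin gene Mmp10 had 11.10, 10.88 and 10.97 in null cells, against 10.003, 9.73 and 9.57 in wild-type cells, a difference of 1.21 ± 0.10. Collagenase 3, Mmp13, had 9.03, 9.99 and 9.98 in null cells, against 8.49, 8.65 and 9.41 in wild-type cells, and its rise of 0.82 ± 0.22 was lost without wild-type replicate 1, wild-type replicate 2, null replicate 2 or null replicate 3 (adjusted p 0.0575 to 0.0767). Mmp9, or gelatinase B, fell, with 10.34, 9.88 and 9.94 in null cells, against 11.97, 11.55 and 11.30 in wild-type cells and a difference of -1.55 ± 0.17. The membrane-bound Mmp14 and the inhibitors Timp2 and Timp3 fell by 0.82, 0.73 and 0.65.

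The AP-1 motif, TGANTCA, reads the same on both strands. It stood in 1112 of the 15613 promoters (7.12%), in 136 of 1638 promoters of genes that rose (8.3%) and in 92 of 1468 of genes that fell (6.27%). The variant TGANNTCA, also searched, was in 1829 of all promoters (11.7%), 183 of those that rose (11.2%) and 152 of those that fell (10.4%). In the metalloproteinase list the AP-1 motif stood in 8 of 15 promoters (53.3%), and in the cornified envelope list in 12 of 33 (36.4%). Other lists varied, with 7 of 23 for kallikreins and serpins (30.4%) and 5 of 16 for IL-1 family and cytokine genes (31.2%). The interferon list, with 1 rise and 4 falls, had 5 of 20 (25%), and the cell cycle list 0 of 29. Stretches from the promoters of 5 metalloproteinase genes that rose and of Lor are shown because the motif recurs in them at a short distance from the start; they run from 30 bases before the match to the base before the start, with the motif in capitals.
Mmp1a (chr9:7464038-7464140, plus strand): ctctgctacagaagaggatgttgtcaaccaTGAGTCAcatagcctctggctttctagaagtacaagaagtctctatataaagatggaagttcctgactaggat
Mmp1b (chr9:7388027-7388149, minus strand): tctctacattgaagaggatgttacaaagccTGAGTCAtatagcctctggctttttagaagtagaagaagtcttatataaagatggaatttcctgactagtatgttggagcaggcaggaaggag
Mmp3 (chr9:7445746-7445821, plus strand): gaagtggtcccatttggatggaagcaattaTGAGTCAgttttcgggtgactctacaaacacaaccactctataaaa
Mmp10 (chr9:7502249-7502341, plus strand): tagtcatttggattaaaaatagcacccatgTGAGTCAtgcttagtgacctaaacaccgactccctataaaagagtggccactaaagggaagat
Mmp13 (chr9:7272449-7272513, plus strand): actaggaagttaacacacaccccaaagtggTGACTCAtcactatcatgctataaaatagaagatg
Lor (chr3:92083143-92083220, minus strand): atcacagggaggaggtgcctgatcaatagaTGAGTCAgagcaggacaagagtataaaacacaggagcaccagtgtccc
The match began 73 bases before the start in Mmp1a, 93 in Mmp1b, 46 in Mmp3, 63 in Mmp10, 35 in Mmp13 and 48 in Lor. Mmp3 rose by 1.07. Mmp7 (-0.08) and Mmp12 (0.01) hold the motif too and did not pass.

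Among cytokine and chemokine genes some rose and some fell. The colony-stimulating factors Csf1 and Csf2, with -0.87 and -0.84, the leukaemia inhibitory factor gene Lif (-1.13) and the chemokines Ccl5 (-0.84), Ccl20 (-0.77) and Cx3cl1 (-0.75) fell. The call on Csf2 was lost without null replicate 2 (adjusted p 0.0511). Lif had 10.88, 10.64 and 10.60 in null cells, against 11.99, 11.89 and 11.62 in wild-type cells, and the genotypes did not overlap. Ccl5, a chemokine that draws T cells, had 7.55, 7.73 and 7.66 in null cells, against 8.47, 8.53 and 8.46 in wild-type cells. Il24, a cytokine of the IL-10 family, rose instead, with 11.85, 11.85 and 11.85 in null cells, against 10.93, 10.77 and 10.82 in wild-type cells and a difference of 1.01 ± 0.07. Cxcl14, a chemokine made by resting epithelia, had 9.25, 9.27 and 9.18 in null cells, against 8.17, 8.33 and 8.51 in wild-type cells, a difference of 0.90 ± 0.07. Of 21 measured IL-1 family and cytokine genes 7 rose and 5 fell, a share of 57.1%. Of 21 chemokines 1 rose and 4 fell, a share of 23.8% near the 19.4% of all genes. With only the 6 arrays fitted, 4 IL-1 family and cytokine genes rose. The epidermal IL-1 family genes Il33 (0.73), Il1f9 (0.77), Il1f8 (0.70), Il1f5 (0.52) and Il1rn (0.43) were among those that rose, and Il1a did not pass. Of 26 interferon response genes 1 rose and 4 fell, a share of 19.2% beside 19.4% of all genes; 2 fell without wild-type replicate 1, wild-type replicate 2, null replicate 2 or null replicate 3. Among those that fell were the viral RNA sensors Ifih1 (-0.64 ± 0.14) and Tlr3 (-0.54 ± 0.13). The leukocyte marker sum was higher in null cells, and 5 of its 23 markers rose, Thy1, H2-Ab1, Cd68, Csf1r and Itgam, a share of 21.7% beside 19.4% of all genes. That count was 0 with only the 6 arrays fitted, 2 without wild-type replicate 3 or null replicate 2, and 3 without wild-type replicate 1, wild-type replicate 2 or null replicate 3. The pan-leukocyte marker Ptprc, at a log2 level of 5.89 in null cells and 5.89 in wild-type cells, and the T-cell marker Cd3e, at 7.26 in null cells and 7.32 in wild-type cells, did not pass. The part of these markers in the cytokine values was not tested.

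Genes that PPAR-beta is known to induce moved in both directions without ligand. Of 29 measured targets 5 rose and 6 fell, with a median of -0.05; 37.9% passed, beside 19.4% of all genes. Without null replicate 3, 3 rose and 3 fell, and without wild-type replicate 2 or null replicate 2 the rises were 3. Cpt1a, the entry enzyme of mitochondrial fatty acid oxidation, had 10.04, 9.93 and 9.82 in null cells, against 10.71, 10.66 and 10.57 in wild-type cells, a difference of -0.72 ± 0.07 with an adjusted p of 1.44e-07. Acadl, a long-chain dehydrogenase, fell by 0.47. Angptl4, a secreted inhibitor of lipoprotein lipase and a standard target, was higher in null cells, with 10.49, 10.32 and 10.26 in null cells, against 9.79, 9.88 and 9.55 in wild-type cells and a difference of 0.62 ± 0.11. Acot2, a mitochondrial thioesterase, had 12.54, 12.54 and 12.63 in null cells, against 11.54, 11.73 and 12.002 in wild-type cells, a difference of 0.81 ± 0.10. The carnitine carrier Slc25a20 rose by 0.56 ± 0.06. Pdk4, which restrains pyruvate oxidation and is among the most inducible targets, did not pass, with 6.42, 6.47 and 6.60 in null cells, against 6.71, 6.45 and 6.75 in wild-type cells. Plin2, which coats lipid droplets, rose by 0.16 ± 0.05, a call lost without wild-type replicate 2, wild-type replicate 3, null replicate 2 or null replicate 3 (adjusted p 0.0834 to 0.168). Of 20 measured genes of mitochondrial fatty acid oxidation, 5 fell and 2 rose; 3 fell without null replicate 2 or null replicate 3, and 8 without the pair of arrays nearest the other genotype. The direct-repeat motif of PPAR and its partner, AGGNCA repeated after 1 base of any kind, was searched on both strands. It was in 58 of 15613 promoters (0.371%), 8 of 1638 (0.488%) of genes that rose and 5 of 1468 (0.341%) of genes that fell. The 250 bases searched held it in 0 of 23 promoters of the PPAR target list and 0 of 17 of the fatty acid oxidation list. These shares therefore cannot tell direct targets of the receptor from other genes.

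Among the receptors and their partners, the binding partner Rxra fell by 0.27, the coactivator Ppargc1a by 0.44, and Pparg, a relative of the absent receptor, rose by 0.21 ± 0.07 at an adjusted p of 0.0476. The call on Pparg was lost whichever single array was left out (adjusted p 0.0711 to 0.158). Ppara had a difference of -0.02 ± 0.09 and did not pass.

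Cholesterol synthesis and glycolysis genes were higher in null cells. Of 19 measured genes of the cholesterol pathway 12 rose and 1 fell, with a median of 0.24. Insig1, a sterol-responsive regulator of the pathway, had 11.55, 11.62 and 11.65 in null cells, against 10.95, 10.92 and 10.91 in wild-type cells, a difference of 0.68 ± 0.06. Hmgcs1, which catalyses an early step, had 11.73, 11.74 and 11.78 in null cells, against 11.29, 11.32 and 11.33 in wild-type cells, a difference of 0.44 ± 0.05, and Lss, which closes the sterol rings, rose by 0.47 ± 0.06. Dhcr7, the last step to cholesterol, went the other way with 11.34, 11.17 and 11.16 in null cells, against 11.89, 11.93 and 11.75 in wild-type cells, a difference of -0.63 ± 0.06. Arrays of the genotypes did not overlap for any of these 4 genes. Of 28 measured genes of glycolysis and hypoxia response 19 rose and 0 fell, with a median of 0.28. Pfkfb3, which makes the activator of the main control step of glycolysis, had 9.38, 10.28 and 10.26 in null cells, against 8.70, 8.89 and 9.15 in wild-type cells, a difference of 1.06 ± 0.19. Pfkp, a form of that control enzyme, had 10.74, 10.83 and 10.78 in null cells, against 10.14, 10.15 and 10.27 in wild-type cells, a difference of 0.60 ± 0.08. The hypoxia-responsive peptide gene Adm rose by 0.87 ± 0.16, and Ankrd37 by 0.67 ± 0.09. Null replicate 1 was the lowest null array for 23 of the 28 genes and wild-type replicate 3 the highest wild-type array for 19. Over all 19937 genes these counts were 6068 and 6283.

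Simple epithelial keratins, which are hardly made by normal keratinocytes and which stood far above mock cells here, were lower in null cells. Krt8 had 12.38, 12.03 and 11.91 in null cells, against 13.09, 12.92 and 12.80 in wild-type cells, a difference of -0.83 ± 0.16; in mock cells it averaged 8.92 ± 0.19 in null cells and 8.71 ± 0.18 in wild-type cells (SD, n = 3 each). Its partner Krt18 had 12.42, 12.18 and 12.12 in null cells, against 13.02, 12.87 and 12.61 in wild-type cells, a difference of -0.59 ± 0.14. Krt7 had 9.57, 9.22 and 9.09 in null cells, against 10.60, 10.25 and 10.001 in wild-type cells, a difference of -0.99 ± 0.13 with an adjusted p of 1.54e-05. Krt19 and Krt4 also fell, while Krt23 (0.67 ± 0.17) and the stress keratins Krt6b and Krt16 rose. The call on Krt23 was lost without wild-type replicate 1 or null replicate 2 (adjusted p 0.0637 to 0.0641). Of 19 measured basal keratin, integrin and hemidesmosome genes 4 rose and 6 fell, a share of 52.6% beside 19.4% of all genes. Falls numbered 3 without wild-type replicate 1 or with only the 6 arrays fitted. Itgb6, an integrin subunit that activates latent TGF-beta, had 10.64, 10.31 and 10.26 in null cells, against 11.11, 11.19 and 11.06 in wild-type cells, a difference of -0.71 ± 0.08, and Itgb8, with the same known activity, fell by 0.57. The laminin-332 chain Lamb3 rose by 0.39 ± 0.07.

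Cell cycle, CDK inhibitor and senescence genes were counted next. Of 38 measured cell cycle and replication genes 0 rose and 6 fell, with a median of -0.07; 15.8% passed, near the 19.4% of all genes. Foxm1, a transcription factor of mitotic genes, had 9.78, 9.84 and 9.81 in null cells, against 10.10, 10.08 and 10.16 in wild-type cells, a difference of -0.30 ± 0.07. Of 27 measured CDK inhibitor and senescence genes 1 rose and 9 fell (37% passed), and 5 fell without null replicate 3. Igfbp3, a binding protein of insulin-like growth factors, had 12.31, 12.23 and 12.23 in null cells, against 13.06, 12.996 and 12.83 in wild-type cells, a difference of -0.71 ± 0.08. Igfbp7 had 12.99, 12.66 and 12.70 in null cells, against 13.67, 13.56 and 13.45 in wild-type cells, a difference of -0.78 ± 0.09. Pml, a nuclear body protein, differed by -0.35 ± 0.06. The CDK inhibitor genes Cdkn2a and Cdkn2b did not pass, with -0.22 ± 0.10 and -0.24 ± 0.11, and their arrays overlapped between genotypes.

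Markers of other cells and of sex moved as follows. Of 22 measured fibroblast markers 9 rose, led by Dpt (0.94) and Thy1 (0.53, a call lost without the pair of arrays nearest the other genotype), and 3 fell, among them Fn1 (-0.52), also a TGF-beta response gene in keratinocytes, and Postn (-0.55). With only the 6 arrays fitted, or without that pair, 5 fibroblast markers rose. In the main fit 54.5% of the fibroblast markers passed, beside 19.4% of all genes. The collagen genes Col1a1 and Col1a2 did not pass, with 0.03 and -0.02. Of 14 melanocyte markers 1 fell and 0 rose, a share of 7.14%. Of 10 endothelial markers 1 rose and 1 fell, a share of 20% near the 19.4% of all genes. The Y-linked genes Kdm5d, Uty and Eif2s3y were lower in null Hras cells, with differences of -0.50, -0.46 and -0.43, and higher in null mock cells, with 0.31, 0.33 and 0.65. They are 3 of the 4 measured sex-linked genes. The other did not pass in Hras cells (0.13) and was lower in null mock cells. The part of these cell and sex differences in the other results was not tested.

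The genotype difference in Hras cells was then set against that in mock cells, which are different arrays. In mock DMSO cells 2076 genes differed (10.4%), 974 higher (4.89%) and 1102 lower (5.53%) in null cells; without wild-type mock replicate 1, 636 were higher. Of the 3871 genes, 411 passed in mock cells in the same direction, which is 10.6% of the Hras genes and 19.8% of the mock genes. Another 470 passed in the opposite direction, 12.1% of the Hras genes and 22.6% of the mock genes. The difference between the 2 genotype differences, tested as an interaction term in the same fit, passed for 3342 genes (16.8%), 1665 above 0 (8.35%) and 1677 below 0 (8.41%). It shares the Hras arrays with the main comparison. Of the 139 genes with at least a 2-fold change in Hras cells, 130 passed the interaction, and 56 had the same sign in mock cells. The 139 were picked on values that also enter the interaction, so the count of 130 is no separate support.

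Differentiation genes had opposite genotype differences with and without Hras. In mock cells 18 of the 36 cornified envelope genes were lower in null cells and 3 higher, with a median of -0.41 against 0.55 in Hras cells; 24 passed the interaction, all above 0. Lor differed by -0.48 in mock cells and 0.83 in Hras cells, an interaction of 1.31 ± 0.22 with an adjusted p of 0.000175. Mock null cells had Lor at 11.99, 11.52 and 11.86, against 12.26, 12.19 and 12.37 in mock wild-type cells. Alox12b differed by -0.63 in mock and 1.43 in Hras cells, an interaction of 2.05 ± 0.25. Its mock levels were 10.26, 9.82 and 10.10 in null cells, against 10.79, 10.60 and 10.67 in wild-type cells. The stress response list had a median of -0.13 in mock cells, with 1 gene higher and 11 lower, and 25 of its 30 genes passed the interaction above 0. Epgn (-0.77 in mock cells, interaction 1.93 ± 0.18) and Hbegf (-0.31, interaction 0.64 ± 0.08) turned over likewise. Wnt7b had the opposite order, with 0.57 in mock cells and an interaction of -1.61 ± 0.12 at an adjusted p of 2.22e-08. For TGF-beta genes 7 of 31 were higher and 3 lower in null mock cells, and 17 passed the interaction below 0 and 2 above. The cholesterol synthesis list leaned the same way in both, with 11 of 19 higher and 0 lower in null mock cells and a median of 0.22. Interferon response genes were higher in null mock cells, 12 of 26, with 0 lower and a median of 0.35, and 11 passed the interaction below 0. The fibroblast markers also differed between the conditions, with 16 of 22 lower in null mock cells and their summed level at 33400 to 34200 in null mock cells, against 40100 to 42200 in wild-type mock cells; their part in these mock differences was not tested.

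The largest interactions belonged to Gabrp and Sorbs2. Gabrp differed by 1.03 in mock cells and -2.33 in Hras cells, an interaction of -3.36 ± 0.21 with an adjusted p of 1.52e-09. Mock null cells had 11.69, 11.78 and 11.62, against 10.60, 10.80 and 10.60 in mock wild-type cells. Sorbs2, an adaptor of the actin cytoskeleton, differed by 1.70 in mock cells and -1.51 in Hras cells, an interaction of -3.21 ± 0.17. For Il3 the interaction of -3.06 ± 0.33 came with a mock level of 5.22, 4.93 and 4.88 in null cells, against 4.87, 5.07 and 4.96 in wild-type cells, so all mock arrays lay below the null Hras arrays. Some of the largest changes were present in mock cells too. Spon2 differed by 2.17 ± 0.07 in mock cells, and its interaction of 0.03 ± 0.10 did not pass, nor did that of Ublcp1 (0.54 ± 0.26), which differed by -3.35 ± 0.19 in mock cells.

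In Hras cells given GW0742, again on separate arrays, 4201 genes (21.1%) differed between null and wild-type cells, 1976 higher (9.91%) and 2225 lower (11.2%). Without null Hras GW0742 replicate 1, 3361 were higher, and with only those 6 arrays fitted the count of both directions was 1686. Of the 3871 genes, 2419 passed in the same direction there, 62.5% of the DMSO genes and 57.6% of the GW0742 genes, and 42 in the opposite direction. All 139 genes with at least a 2-fold change kept their sign and 133 passed. Mcam differed by -3.00 ± 0.07 with GW0742, Mid1 by -2.75 ± 0.05, Il3 by -3.66 ± 0.23 and Spon2 by 2.65 ± 0.07. Some lists had other counts with GW0742. The PPAR targets had a median of -0.05 in DMSO and -0.65 with GW0742, where 20 of 29 were lower in null cells and 0 higher. Cholesterol synthesis genes had 12 higher and 1 lower in DMSO, and 2 higher and 5 lower with GW0742. Feedback and immediate early genes had 11 higher and 6 lower in DMSO, and 2 higher and 9 lower with GW0742. The difference between these ligand conditions was not tested. Pdk4, with -0.14 in DMSO, differed by -5.68 ± 0.08 with GW0742. Cpt1a differed by -2.17 and Angptl4 by -2.09, the reverse of its sign in DMSO. The cornified envelope list had 25 higher and 0 lower with GW0742, and the stress response list 16 higher and 0 lower.

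Across the 4 genotype comparisons, which share no arrays, 548 genes passed in all and 244 of these in the same direction, 107 higher and 137 lower in null cells. The 10 largest in Hras DMSO cells were Mcam, Ublcp1, Mid1, Spon2, Dhdh, Atp10d, Pdpn, Ceacam19, Qpct and Slc26a9, an anion transporter with 9.60, 9.63 and 9.44 in null cells, against 11.11, 11.27 and 10.97 in wild-type cells. Around Ppard on the chromosome, 2 of the 20 nearest measured genes, 10 on each side in RefSeq order, passed in Hras DMSO cells: Zfp523 (-0.35 ± 0.06) and Scube3 (-0.28 ± 0.07). That share of 10% stands beside 19.4% of all genes, and Scube3 lost its call without null replicate 2 (adjusted p 0.0599).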

How the data were processed

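The data are log2 values deposited by the authors for 34760 probe sets on 24 arrays of the Affymetrix Mouse Gene 1.0 ST design; per the submitters' processing notes they were made with RMA, which corrects background, normalizes arrays by quantiles and summarises probes. For its version and the annotation build, the sources used here give nothing. No value was missing, and array medians lay between 7.46 and 7.53. Probe sets with 1 gene symbol in the platform annotation (21640) were kept, and of several for a gene (954 genes) the one with the highest mean, which left 19937 genes; 1321 probe sets had several symbols and 11799 none. Arrays hold no read depth, so their number, 3 per group, limits the precision.

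Samples were grouped by their titles. A linear model with 1 mean per group was fitted over all 24 arrays with limma 3.58.1 in R 4.3.3 and moderated by eBayes, with 16 degrees of freedom from the residuals and 4.43 from the prior; p-values were adjusted by Benjamini-Hochberg over all genes, and 0.05 was the threshold. On data simulated for the Hras DMSO comparison over 19937 genes it recovered 93% of 100 genes changed 1.5-fold and 99% of 100 changed 2-fold, with 14 false among 206 calls. The simulated noise was independent for each gene and array, and no other genes were changed. Shifts shared by many genes of an array were not simulated, so these are not error rates of the real comparison. Figures were drawn with matplotlib 3.10.9.

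The named genes are the 12 largest rises and falls without overlap, predicted transcripts skipped; up to 4 per gene list with the largest change among those that passed; the 10 largest with 1 direction in all 4 genotype comparisons; the 8 largest interactions; a fixed set of receptors, targets and markers; and those of Ppard's 20 neighbours that passed. Other list members named to spell out a count or a promoter were chosen after their values were seen. The 31 lists (681 of 740 members measured) and the comparison itself were chosen with earlier results of these data known, so no list got a test of its own. Alternatives covered centring, a filter on dim genes, moderation, probe set choice, the arrays fitted, array weights, a replicate block and leaving out each array.

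Replicate numbers in the labels did not pair the Hras DMSO arrays, while for mock DMSO the same-number correlations of deviations from the group means were 0.144, 0.118 and 0.132. Some fixed genes were not analysed here.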

Additional observations from a re-analysis of the deposited data

Results flagged for a closer look

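The genotype difference, null minus wild-type, differed between Hras and mock DMSO cells for 3342 genes by limma's interaction term. Those listed here are the 8 largest and the named genes that passed in opposite directions in Hras and mock cells, each given as the interaction, the Hras difference minus the mock difference on the log2 scale. Groups of 3 arrays are too small for a test of single outlying arrays.

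The interaction was below 0, so that the null minus wild-type difference was lower in Hras than in mock cells, for the channel subunit Gabrp (-3.36), the adaptor Sorbs2 (-3.21), the cytokine Il3 (-3.06), Clca3a2 (-2.47), the ligand Wnt7b (-1.61), the fatty acid oxidation genes Cpt1a (-1.32) and Acadl (-1.02), the RNA sensor Ifih1 (-1.09), the tight junction gene Cldn8 (-0.82) and the Y-linked genes Eif2s3y (-1.08), Kdm5d (-0.81) and Uty (-0.79).

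It was above 0 for the cornified envelope genes Lce3e (2.49), Lce1b (2.42), Lce1f (2.32) and Lor (1.31), and for the lipid barrier genes Alox12b (2.05), Aloxe3 (2.02) and Degs2 (1.89). The EGF-family ligands Epgn (1.93), Nrg1 (0.72) and Hbegf (0.64) belonged here too, as did the stress genes Slc7a11 (1.04), Ddit3 (0.95) and Atf4 (0.48) and the early response genes Dusp1 (0.71) and Fosl1 (0.70). The others were the defensin Defb4 (2.87), Kctd4 (2.73), the retinoid genes Dhrs9 (1.75) and Crabp1 (1.49), the thioesterase Acot2 (1.23), the channel Trpv3 (0.94), the glycolytic enzyme Pfkp (0.91) and the fibroblast markers Aspn (2.67), Dpt (1.67) and Thy1 (1.23). Aspn lay near the lower end of the scale in Hras cells and did not pass there (0.42). The fibroblast marker sum in mock cells was below the wild-type range in null cells, and its part in these interactions was not tested.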

How the results depend on the processing

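The count of genes that differed between null and wild-type Hras DMSO cells stayed within 1.5 times of 3871 in each setting tried, from 2769 with only those 6 arrays fitted to 5569 with array weights, and from 2849 to 3815 when 1 array was left out. With replicate number as a block it was 3882, 2007 higher and 1875 lower; the same-number correlations of 0.212, -0.0507 and 0.0965 gave no pairing, and the block moved no other count by over 1.5 times (mock DMSO 2075) and ended the call on Pparg. Of 163 named genes 151 passed, and 123 kept their call and direction in every setting. Reversals touched 3 genes, all without a call: with array weights Ilk was -0.0017 and Ivl -0.017; without the 2 arrays nearest the other genotype, chosen after the data were seen, Ilk was -0.040 and Ivl -0.0031; with 1 array left out Ilk ranged from -0.0066 to 0.073, Ivl from -0.014 to 0.033 and Ppara from -0.064 to 0.0093. In mock DMSO cells array weights gave 3164 genes, 1672 of them higher, and leaving out 1 array gave 636 (without wild-type replicate 1) to 878 higher. In Hras GW0742 cells only their own 6 arrays gave 1686 genes, 706 higher and 980 lower, array weights gave 7975, 4607 higher and 3368 lower, and leaving out 1 array gave 1481 to 3361 higher, the last without null replicate 1; the cause was not tested. Centring arrays moved the median gene by under 0.1. With 3 arrays a group, small differences were not all detectable.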

Other observations

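Retinoid, antioxidant and junction genes were measured too. Stra6, the receptor that takes up retinol, had 10.36, 9.97 and 9.86 in null cells, against 11.71, 11.52 and 11.37 in wild-type cells, a difference of -1.47 ± 0.13 with an adjusted p of 3.81e-08, and Rdh10, which starts the oxidation of retinol, differed by -0.74 ± 0.09. Dhrs9 (0.78 ± 0.19) and the retinoic acid carrier Crabp1 (0.63 ± 0.09) were higher in null cells. Of 19 measured retinoid genes 3 rose and 4 fell, a share of 36.8% beside 19.4% of all genes. The antioxidant genes Hmox1, which degrades haem, and Nqo1, a quinone reductase, rose by 0.67 ± 0.13 and 0.67 ± 0.10. Of 25 measured genes of this kind 6 rose and 1 fell, a share of 28% beside 19.4% of all genes. With only the 6 arrays fitted 3 rose. The claudins Cldn3 and Cldn8 differed by -0.54 ± 0.14 and -0.55 ± 0.07, and the heat-gated channel Trpv3 rose by 0.55 ± 0.11. Of 18 measured junction and channel genes 3 rose and 6 fell, Gabrp among them. That share of 50% stands beside 19.4% of all genes.

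Nnt, a mitochondrial transhydrogenase chosen here after its values were seen, averaged 8.90 ± 0.15 in null Hras DMSO cells and 10.14 ± 0.12 in wild-type Hras DMSO cells (SD, n = 3 each), a difference of -1.24 ± 0.09 with an adjusted p of 1.02e-08 by limma. It was also lower in null cells in mock DMSO (-0.72), Hras GW0742 (-1.27) and mock GW0742 (-0.63). The gene is known to carry a deletion in the C57BL/6J substrain; the labels give both genotypes as C57/BL6 without a substrain, and substrain was not tested.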
